A study of Mus musculus with 32 samples.

Results

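The myeloid C-type lectins examined here are 10 mouse receptor genes, Clec4a1, Clec4a2, Clec4a3, Clec4d, Clec4e, Clec4n, Clec5a, Clec7a, Clec10a and Clec12a, followed in leukemic cells driven by the MLL-Af4 fusion. They are 10 of the 23620 genes that the RNA-seq tables of both cell types list. The members were chosen by symbol, with their measured RNA level in both tables and the IGF2BP3 eCLIP peaks of these same samples already known, so every count of members with a peak is a description and carries no test.

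C-type lectins of myeloid cells sit on the surface and recognise sugars of microbes or material released by dying cells. Several activating members signal through the adaptors FcRgamma or DAP12 to the kinase Syk and the CARD9 complex, while inhibitory members carry a motif that recruits phosphatases. IGF2BP3 is an oncofetal RNA-binding protein that prefers CA-rich RNA. In eCLIP, RNA crosslinked to a protein by UV light is recovered with an antibody to that protein and sequenced, and a peak is a stretch where reads pile up.

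The study compared WT/MLL-Af4 with I3KO/MLL-Af4 cells, I3KO being mice that lack Igf2bp3 in the germline, in 12 RNA-seq libraries with 3 of each genotype in each of 2 cell types. Lin- cells were lineage-depleted bone marrow cells transduced with an MSCV-MLL-flag-Af4 retrovirus and selected with G418, and CD11b+ cells were collected by magnetic selection from the splenic tumors of mice carrying such leukemia, so all groups carry MLL-Af4 and no group lacks it. IGF2BP3 eCLIP was made in 6 Lin- libraries (3 biological, 3 technical) and 4 CD11b+ libraries (2 biological, 2 technical), from WT/MLL-Af4 cells, each with its own size-matched input (smInput). The labels do not state which sample each technical library repeats, although the names of libraries 1 and 4, 2 and 5, and 3 and 6 (Lin-) and of 1 and 3, and 2 and 4 (CD11b+) end in the same digit. They give neither the strain nor the age of the mice. The descriptions of the CD11b+ eCLIP libraries begin with bm, as those of the Lin- libraries do, so the spleen as their tissue rests on the shared protocol text alone.

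The eCLIP libraries held 4040 to 10042 filtered peaks (Lin-) and 7085 to 10054 (CD11b+), after 10.8 to 25.9% of the peaks had been removed for overlap with smInput. The cell types differed in where all their peaks fell: 22.1 to 52.7% of the peaks in a Lin- library spanned an annotated splice site, against 6.45 to 9.42% in a CD11b+ library. Markers in the RNA-seq tables went with the labels in part. The stem and progenitor markers Kit, Cd34 and Flt3 had mean normalised counts of 6974, 9052 and 9396 in Lin- cells, where 1.59 to 2.64% of the genes were higher, and the monocyte and neutrophil markers Lyz2 and S100a8 had 72146 and 39348 in CD11b+ cells, where 0.0193 and 0.104% were higher. Of the other listed progenitor markers, Myb did not separate the cell types in this way. It stood at 22675 (0.26% of genes higher) in the Lin- table and at 37516 (0.116% higher) in the CD11b+ table. Meis1, at 2452 (10.9%) and 356 (32.1%), had a higher place in the Lin- table. Hoxa9 did so by less, at 4541 (4.93%) and 2332 (7.23%). Lyz2 itself stood at 20990 (0.312% higher) in the Lin- table. Among the monocyte and neutrophil markers, Mpo and Ccr2 had a higher place in the Lin- table, at 101212 (0.00753%) and 11894 (1.02%). In the CD11b+ table they stood at 84102 (0.0116%) and 2971 (5.45%). The other markers of these lists that both tables hold had a higher place in the CD11b+ table, Ly6g at only 108 (44.2%). Itgam, which encodes CD11b itself, was listed at 17.0 in CD11b+ cells and is not in the Lin- table; 68.7% of its exon bases are shared with Gm49368, a gene annotated on the same strand, and reads over such bases may be counted for neither. T cell and NK cell markers of the fixed lists did not exceed 14.8 in either table. Markers of further lineages were present, namely Siglech of plasmacytoid dendritic cells at 5631 and Itga2b of megakaryocytes at 1922 in Lin- cells, and the globin genes Hba-a1 and Hbb-bs at 1268 and 1083 and the B cell gene Cd79b at 433 in CD11b+ cells. Their part in the results was not tested. All 10 lectins are free of such exon overlap with another gene.

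Clec10a (ENSMUSG00000000318) lies on chromosome 11 at chr11:70156197-70170834, plus strand, and the other 9 lie on chromosome 6 (mm10). Clec5a (ENSMUSG00000029915) is at chr6:40574894-40585821, minus strand. A cluster holds Clec4a1 (ENSMUSG00000049037) at chr6:122921848-122934619, Clec4a3 (ENSMUSG00000043832) at chr6:122952515-122969875, Clec4a2 (ENSMUSG00000030148) at chr6:123106428-123143999, Clec4n (ENSMUSG00000023349) at chr6:123229843-123247021 and Clec4d (ENSMUSG00000030144) at chr6:123262111-123275265, all on the plus strand, and Clec4e (ENSMUSG00000030142) at chr6:123281789-123289870 on the minus strand. Farther along are Clec12a (ENSMUSG00000053063) at chr6:129342691-129365303, plus strand, and Clec7a (ENSMUSG00000079293) at chr6:129461591-129472779, minus strand. All are annotated as protein coding except Clec7a, which this annotation lists as a polymorphic pseudogene.

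The Clec12a receptor, an inhibitory lectin also called MICL, held the peak found most often. A peak over the 5′ splice site of its second exon was present in all 6 Lin- and all 4 CD11b+ libraries, and the stretch common to the 10 peaks ran 44 bases, chr6:129353441-129353484 (mm10, plus strand). The 40 bases around that exon end (chr6:129353431-129353470) are shown because the peak crosses them, with the coding exon in capitals and the intron in lower case.
Clec12a, 5′ splice site of exon 2: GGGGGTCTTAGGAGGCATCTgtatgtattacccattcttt

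The Clec4e gene, which encodes the activating receptor Mincle, held 3 regions. Merged over libraries, all 3 crossed a 3′ splice site, at exon 2, exon 3 and exon 6 of the 6-exon transcript on the minus strand. At exon 3 only the peak of CD11b+ library 2 crossed the site. The 40 bases around each site are set side by side in transcript direction, exon in capitals, so that the pyrimidine-rich end of the intron and its final ag can be seen.
Clec4e, 3′ splice site of exon 2 (chr6:123288970-123289009): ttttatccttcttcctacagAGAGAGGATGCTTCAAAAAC
Clec4e, 3′ splice site of exon 3 (chr6:123286499-123286538): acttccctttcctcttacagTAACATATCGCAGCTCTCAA
Clec4e, 3′ splice site of exon 6 (chr6:123283677-123283716): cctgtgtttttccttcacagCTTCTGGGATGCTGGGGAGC

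A second kind of region, found in CD11b+ libraries, lay on simple repeats inside introns. These are shown whole, on the strand of the gene. Each run of at least 4 alternating C and A, or G and T, is in capitals. The CA-rich letters preferred by IGF2BP3 and their reverse complement fill most of several of them. The genome sequence marks 100% of the bases of Clec12a region 9, Clec5a region 2 and Clec4d region 1 as repeats. For Clec12a regions 8 and 1 it marks 93.7% and 77.4%. How securely reads were placed on such repeats was not tested.
Clec12a region 9, intron 5 (chr6:129363099-129363160, plus strand): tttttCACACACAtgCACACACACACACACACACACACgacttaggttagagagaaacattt
Clec5a region 2, intron 2 (chr6:40583317-40583413, minus strand): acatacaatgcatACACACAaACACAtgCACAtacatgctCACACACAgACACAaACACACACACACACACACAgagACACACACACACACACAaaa
Clec4d region 1, intron 1 (chr6:123264206-123264277, plus strand): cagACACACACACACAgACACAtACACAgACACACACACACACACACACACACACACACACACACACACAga
Clec12a region 8, intron 5 (chr6:129361843-129361953, plus strand): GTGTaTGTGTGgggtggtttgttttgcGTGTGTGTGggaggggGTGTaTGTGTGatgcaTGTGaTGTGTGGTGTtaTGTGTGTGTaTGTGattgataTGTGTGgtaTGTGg
Clec12a region 1, intron 1 (chr6:129350821-129350882, plus strand): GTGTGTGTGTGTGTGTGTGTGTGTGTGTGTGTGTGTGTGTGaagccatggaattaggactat

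Clec12a was the most abundant of the lectins in both cell types. Its mean normalised count, the authors' mean over the libraries of both genotypes, was 6373 in the Lin- table and 9249 in the CD11b+ table, and 3.08% and 1.22% of the genes of the respective table were higher. Per kb of exon its level was 2547 and 3697. The tables were normalised separately, so levels are set across cell types only by their place within a table, and since they give a mean without the single libraries, no spread stands behind any level and neighbours in the order cannot be told apart by it. In bulk cells, fewer cells of a type and less RNA per cell cannot be told apart.

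Among activating receptors in CD11b+ cells, Clec7a (Dectin-1, the receptor for fungal beta-glucan) stood at 729 per kb, Clec5a (MDL-1, which pairs with DAP12) at 309, Clec4e at 263, Clec4n (Dectin-2, a receptor for fungal mannans) at 174 and Clec4d (MCL, a partner of Mincle) at 162. In Lin- cells the order was another: Clec4d stood at 700 per kb, Clec4e at 421, Clec7a at 202, Clec5a at 106 and Clec4n at 101. By place in the table, 13.5% of genes had a higher level per kb than Clec4d in Lin- cells and 29.8% in CD11b+ cells, while for Clec7a the shares were 32.5% and 9.82%. Clec4e kept nearly the same place, with 21.2% and 22.5% of the genes above it.

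Of the remaining lectins, Clec4a2 (the inhibitory receptor DCIR) differed most in place. It stood at 62.9 per kb in Lin- cells, with 45.1% of genes above it, and at 626 in CD11b+ cells, with 11.3% above it. Its relatives Clec4a1 and Clec4a3 stood at 128 and 39.0 in Lin- cells and at 140 and 179 in CD11b+ cells. Clec10a (MGL1) stood at 134 and 141. These 3 Clec4a genes lie near each other on chromosome 6 and resemble each other in sequence, so the split of reads among them is uncertain. The median over the 10 members was 131 (Lin-) and 221 (CD11b+) per kb, beside 35.2 and 30.0 over all genes of the tables. Those tables hold many genes near 0: among genes with a mean normalised count of at least 10, the median member had 56.8% of genes above it by mean count in Lin- cells and 44.7% in CD11b+ cells.

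**Figure D1:**
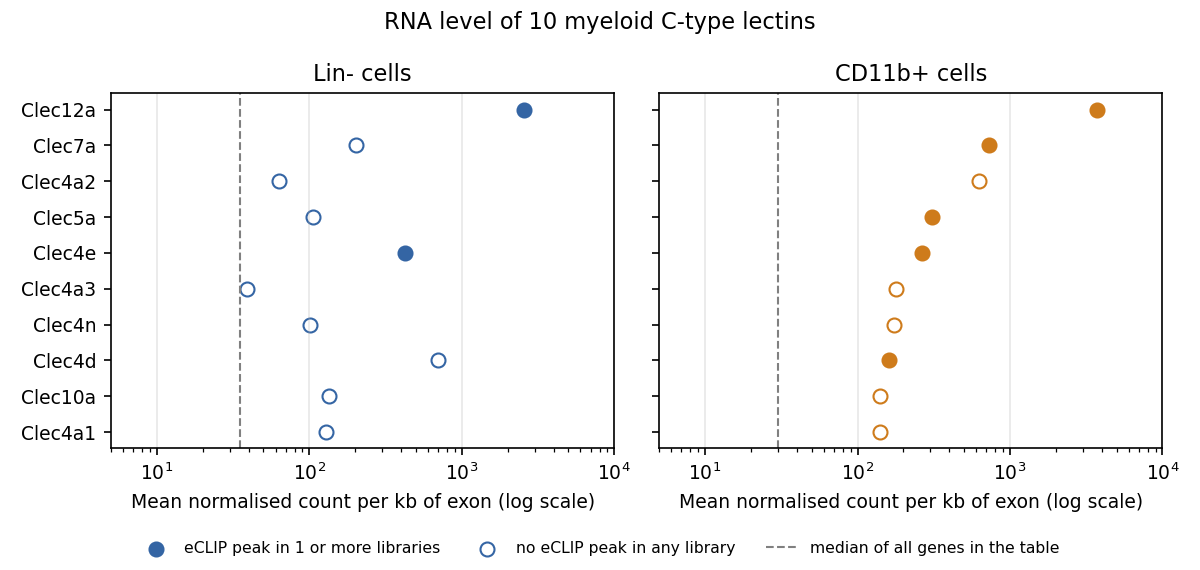
Level of each lectin in Lin- cells (left) and CD11b+ cells (right), as the authors' mean normalised count per kb of annotated exon on a log axis; filled points had a filtered eCLIP peak in at least 1 library, open points had none, and the dashed line is the median of all genes. Clec12a lies far to the right in both panels, at 2547 and 3697, and the highest open points are Clec4d on the left, at 700, and Clec4a2 on the right, at 626.

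In Lin- cells 2 of the 10 lectins, Clec12a and Clec4e, had a filtered eCLIP peak in any library, beside 26.5% of all 26560 genes of the table and 39.8% of those with a mean normalised count of at least 10. In CD11b+ cells 5 did, Clec12a, Clec5a, Clec4e, Clec4d and Clec7a, beside 25.6% of all 25887 genes and 37.1% of those with a mean of at least 10. The members' counts lie on either side of these backgrounds, and with 10 genes a single gene moves the share by 10 percentage points. A peak in every library was found on Clec12a in Lin- cells, beside 3.16% of all genes, and on Clec12a and Clec5a in CD11b+ cells, beside 6.32%.

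The members were also set beside genes of like level and length, first those without a peak. Of the genes within 2-fold of Clec4a3 in both mean count and gene span, 5.63% had a peak in Lin- cells. The share was 9.26% for Clec4n, 12.1% for Clec4a1, 12.6% for Clec4a2 and 22.4% for Clec10a. In CD11b+ cells it was 25.1% for Clec4a1, 27.2% for Clec4n, 29.0% for Clec4a3 and 35.2% for Clec10a. Among the members without a peak the share was highest for Clec4a2: 74.0% of the 1638 genes of like level and span had a peak in CD11b+ cells. No peak was detected on Clec4a2 in any of the 10 libraries, before or after the smInput filter. In Lin- cells, where 52.5% of the genes like Clec4d, 31.3% of those like Clec7a and 28.2% of those like Clec5a had a peak, these 3 had none either. For Clec4e the share was 57.0% in Lin- and 40.8% in CD11b+ cells, and in CD11b+ cells it was 62.8% for Clec7a and 25.1% for Clec4d. Of the genes like Clec12a, 91.1% had a peak in Lin- cells and 90.7% in CD11b+ cells.

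All peaks on the lectins, 12 in Lin- and 27 in CD11b+ libraries, passed the smInput filter, and no smInput peak lay on any of the 10 genes in any library. The smInput libraries held only 217 to 1885 peaks, beside 5455 to 11771 unfiltered eCLIP peaks. The lack of a smInput peak on a gene thus shows little about enrichment over input. Merged over all libraries the 39 peaks formed 18 regions. Clec12a held 10 of them, Clec4e 3, Clec5a 3, Clec4d 1 and Clec7a 1, and no region overlapped another annotated gene on either strand. Reads in a peak are the last number of the name that CLIPper gave it, read here as its read count, which the file headers do not state.

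**Figure D2:**
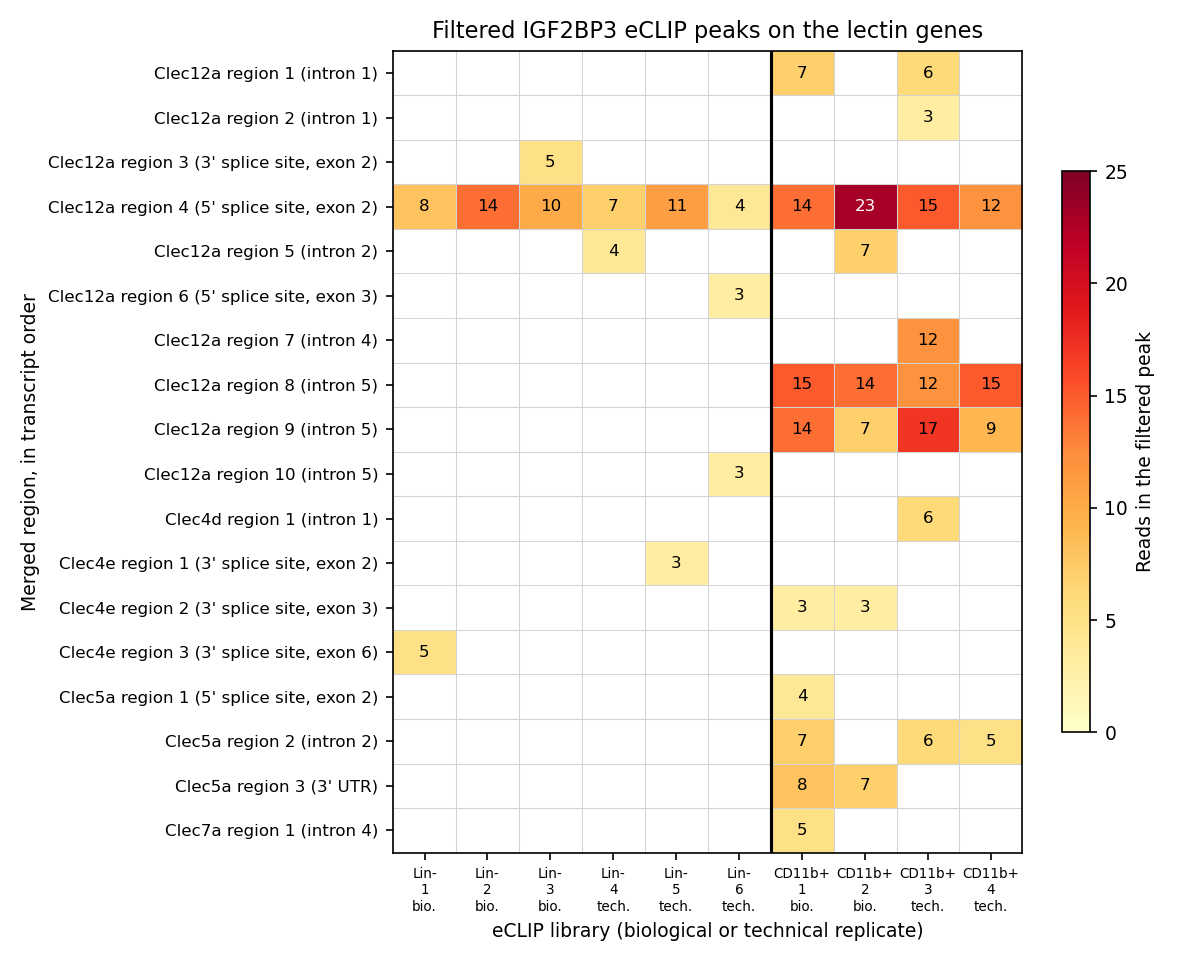
Reads in each filtered eCLIP peak on the lectin genes, with 1 row for each of the 18 merged regions in transcript order and 1 column for each of the 10 libraries (bio. is biological, tech. is technical); an empty cell means no peak. Clec12a region 4 is filled in all 10 columns, with 4 to 23 reads, and Clec12a regions 8 and 9 are filled in the 4 CD11b+ columns only.

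The Clec12a region over the 5′ splice site of exon 2 (region 4) held 8, 14 and 10 reads in the biological Lin- libraries 1 to 3 and 7, 11 and 4 in the technical ones. In CD11b+ cells it held 14 and 23 reads in the biological libraries and 15 and 12 in the technical ones. The ranges, 4 to 14 and 12 to 23 reads, overlap, and libraries differ in depth, so the counts were also placed within each library: 17.8 to 52.0% of a Lin- library's peaks and 13.9 to 26.7% of a CD11b+ library's peaks held more reads. Its p value as deposited ran from 2.7e-17 (CD11b+ library 2) to 0.0072 (Lin- library 6). Of the 32929 regions merged over all genes and libraries, 212, or 0.644%, had a peak in all 10 libraries.

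A pair of Clec12a regions in intron 5 had a peak in all 4 CD11b+ libraries and in no Lin- library. Region 8, the GT-rich stretch printed above, held 15, 14, 12 and 15 reads in CD11b+ libraries 1 to 4, and between 20.1 and 25.5% of the peaks in those libraries held more. Region 9, the CA repeat, held 14, 7, 17 and 9 reads, and between 15.9 and 51.0% of the peaks held more. In the unfiltered files neither was called in Lin- cells. This pattern of every CD11b+ and no Lin- library was shown by 1.88% of all regions. Of such regions on annotated genes, 56.1% held a CA or GT hexamer of the kind described below, beside 26.8% of all regions on annotated genes.

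The other Clec12a regions were found in 1 or 2 libraries each. Region 1, a GT repeat in intron 1, held 7 and 6 reads in CD11b+ libraries 1 and 3. Region 5, in intron 2 with its midpoint 56 bases before exon 3, held 7 reads in CD11b+ library 2 and 4 in Lin- library 4. Region 7 in intron 4 held 12 reads in CD11b+ library 3 alone, a technical replicate. Regions 2, 3, 6 and 10 held 3 to 5 reads in a single library each. Clec12a had 5 merged regions in Lin- cells, a number reached by 14.3% of the genes with a region, and 7 in CD11b+ cells, reached by 5.95%.

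**Figure D3:**
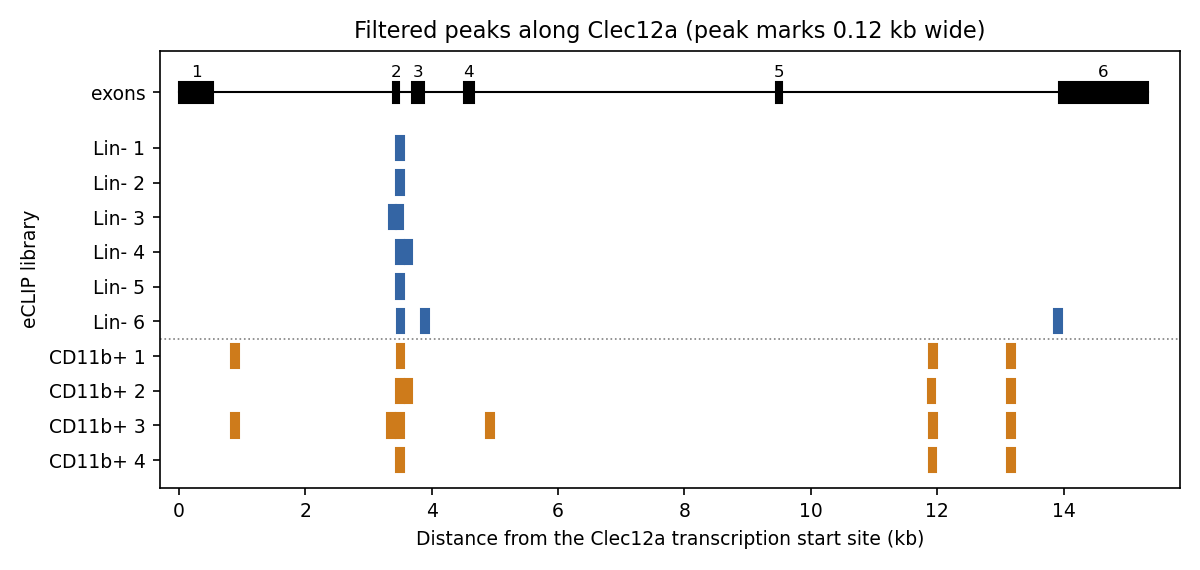
Filtered peaks along Clec12a in each of the 10 eCLIP libraries (blue, Lin-; orange, CD11b+), drawn 0.12 kb wide so that they can be seen, against the distance in kb from the start of the annotated transcript, with its 6 exons above. All 10 libraries share the mark at the end of exon 2, and the pair of marks in intron 5 appears in the 4 CD11b+ libraries.

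Clec5a had no peak in any Lin- library and a peak in every CD11b+ library, although no single region was shared by all 4. Region 2, the CA repeat in intron 2, held 7, 6 and 5 reads in CD11b+ libraries 1, 3 and 4. Region 3, in the 3′ UTR (chr6:40577261-40577358, minus strand), held 8 and 7 reads in the biological libraries 1 and 2. By its midpoint it was the only lectin region outside introns in the basic annotation. Region 1, over the 5′ splice site of exon 2, held 4 reads in library 1. Of the CD11b+ genes of like level and span, 55.0% had a peak.

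The splice-site regions of Clec4e rested on few reads. The region at exon 3 held 3 reads in each of the biological CD11b+ libraries 1 and 2, with p values of 0.048 and 0.039, near the limit of 0.05 that the authors set. Only the peak of library 2 (chr6:123286506-123286558) crossed the splice site, while that of library 1 (chr6:123286525-123286567) lay wholly in the intron. The region at exon 6 held 5 reads in Lin- library 1 and that at exon 2 held 3 reads in Lin- library 5, a technical replicate, with deposited p values of 0.0011 and 0.032. No Clec4e region was thus found in both cell types. Clec4d held 6 reads in CD11b+ library 3, a technical replicate, at the CA repeat of its intron 1, and Clec7a held 5 reads in CD11b+ library 1, in intron 4 (chr6:129465949-129465995, minus strand). At 3 to 6 reads a peak that is missing from the other libraries cannot be said to be absent from them.

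In the basic annotation the midpoints of the regions fell in introns for all 7 Lin- regions and for 12 of the 13 CD11b+ regions. The shares over all merged regions of the cell type, in the same annotation, were 77.4% and 83.3%. With the comprehensive annotation, 71.4% of the Lin- and 69.2% of the CD11b+ regions on the lectins were intronic, so these shares depend on the annotation. Spanning of a splice site, a measure chosen after the regions had been seen, was found for 5 of the 7 regions in Lin- cells, beside 45.0% of all regions, and for 3 of the 13 in CD11b+ cells, beside 10.2%. Of these 3, the Clec4e region at exon 3 crossed the site only through the peak of CD11b+ library 2. In both cell types the members' shares of spanning regions, 71.4% and 23.1%, were above the background, and the order of the cell types was that of the background itself. Clec12a region 4 was counted in both cell types, so these shares are not independent. The other spanning Lin- regions were each found in 1 library, with 3 to 5 reads. Counted by any overlap with an exon, the 5 spanning regions in Lin- cells move to coding exons.

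The 4 merged regions that spanned a 3′ splice site had midpoints at nearly the same distance from it. For the Clec4e region at exon 3 this is the midpoint of merged peaks, of which only that of CD11b+ library 2 crossed the site. The midpoints of the 3 Clec4e regions and of Clec12a region 3 lay 18, 18, 17 and 18 bases before the first base of their exon, and the median over the 7095 regions of all genes that span a 3′ splice site was 19 bases before it (quartiles 23 and 15). At 5′ splice sites the midpoints lay 8 bases past the exon's last base for Clec12a region 6, 11 for Clec5a region 1 and 21 for Clec12a region 4, beside a median of 11 (quartiles 7 and 15) over 3254 regions. The value of 21 rests on the wide peak of Lin- library 3: without that library the midpoint of region 4 lay 14 bases past the exon, and the stretch common to all 10 peaks was centred 12 bases past it.

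**Figure D4:**
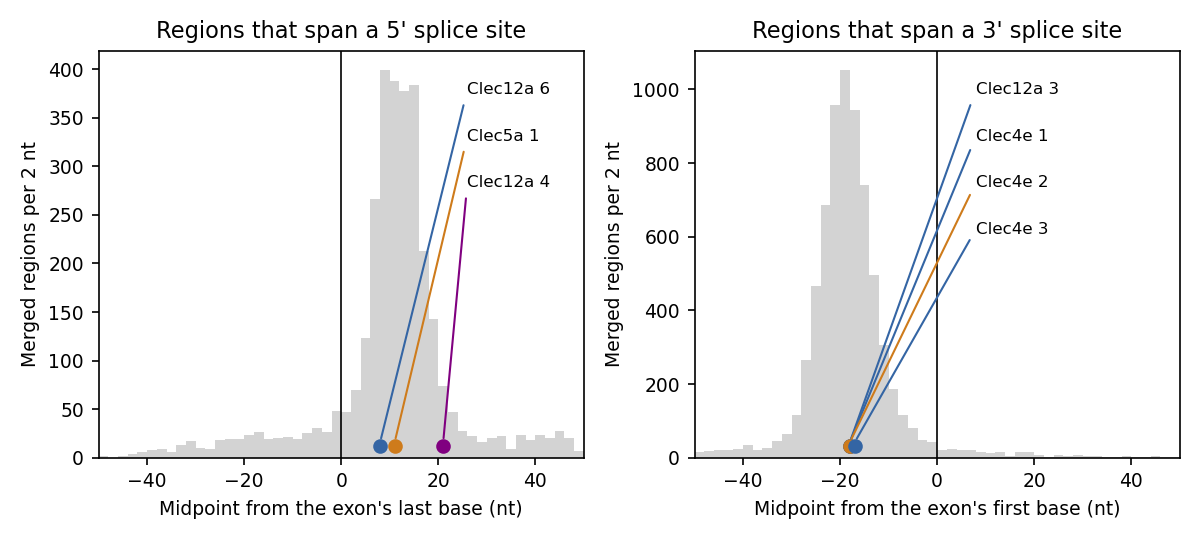
Midpoint of each merged region that spans a 5′ splice site (left, in nt from the last exon base) or a 3′ splice site (right, in nt from the first exon base); grey bars count the regions of all genes per 2 nt and coloured points are the lectin regions (blue, Lin-; orange, CD11b+; purple, both). The 4 lectin points at 3′ splice sites coincide at 17 to 18 nt before the exon, and Clec12a region 4 lies at 21 nt, or at 14 nt without the wide peak of Lin- library 3.

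The hexamers ACACAC and CACACA, which overlap each other by all but a single base, were searched on the strand of the peak. None of the 7 Lin- regions on the lectins held either, beside 8.35% of all Lin- regions, and 3 of the 13 CD11b+ regions did, beside 17.0%. These were Clec12a region 9, Clec5a region 2 and Clec4d region 1, printed above. The reverse complements GTGTGT and TGTGTG, searched after the regions had been seen, were found in none of the Lin- regions, beside 8.09%, and in 2 of the 13 CD11b+ regions, Clec12a regions 1 and 8, beside 24.0%. The most constant region, Clec12a region 4, held none of these letters, nor any ACAC or CACA. Over the whole gene, Clec4a1 held 109 of the CA hexamers over its 12.8 kb and Clec4n 74 over 17.2 kb, both without a peak and both at a level and span at which 9.26 to 27.2% of genes had one, beside 122 in Clec4d and 62 in Clec12a.

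Peaks on the lectins made up 2.72, 0.996, 2.30, 4.95, 3.08 and 6.65 per 10000 filtered peaks in Lin- libraries 1 to 6, and 10.6, 5.97, 10.5 and 5.65 in CD11b+ libraries 1 to 4. The mean was 3.45 ± 2.03 (SD, n = 6) over Lin- libraries and 8.18 ± 2.74 (SD, n = 4) over CD11b+ libraries, where n counts technical repeats that are not independent samples. Over the biological libraries alone it was 2.01 ± 0.898 (SD, n = 3) and 8.26 ± 3.25 (SD, n = 2). With technical libraries counted, the groups overlap, since Lin- library 6, at 6.65, lay above CD11b+ library 4, at 5.65. The biological libraries ran from 0.996 to 2.72 against 5.97 to 10.6, on 1 to 2 and 6 to 9 peaks per library. How often other sets of genes part 3 libraries from 2 in this way was not counted. The gap is therefore not shown to be a trait of the lectins. Counting error is wide at these numbers: the exact 95% binomial interval for Lin- library 6, with 3 peaks, ran from 1.37 to 19.4 per 10000. With Clec12a left out, 1 peak each remained in Lin- libraries 1 and 5 and none in the other 4 Lin- libraries, beside 5, 2, 2 and 1 in the CD11b+ libraries.

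**Figure D5:**
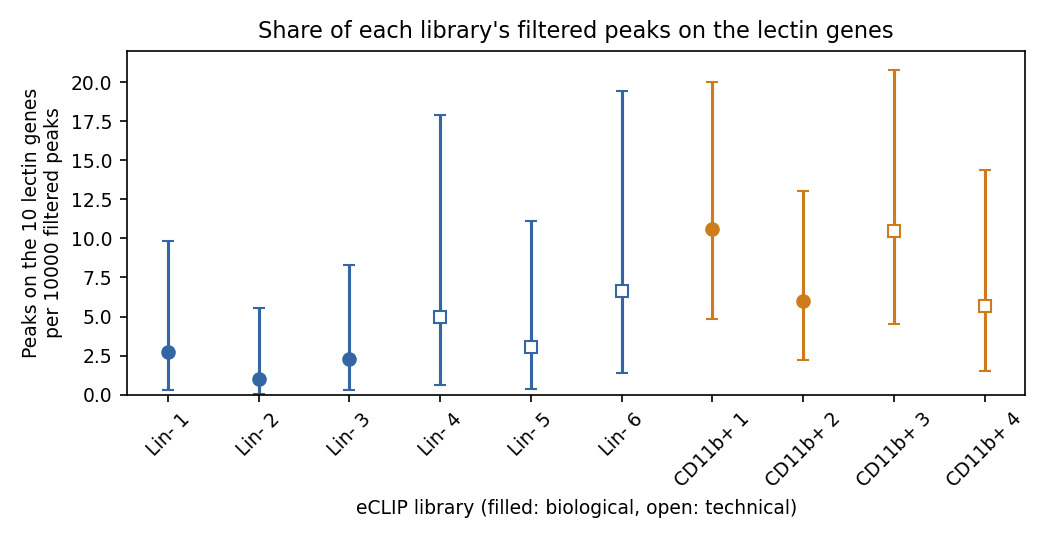
Filtered peaks on the 10 lectin genes per 10000 filtered peaks of the library, for each eCLIP library (blue, Lin-; orange, CD11b+; filled circles, biological; open squares, technical), with exact 95% binomial intervals that cover counting error only. The Lin- libraries lie between 0.996 and 6.65 and the CD11b+ libraries between 5.65 and 10.6, with overlapping intervals.

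Other genes that a fixed list holds as C-type lectins were counted too, at lower levels than the members. Whether each has a working lectin domain was not checked. Their median mean normalised count was 88.6 (Lin-) and 64.2 (CD11b+), beside 370 and 507 for the members, so they are not a matched background. Of the 36 listed, 28 were in the Lin- table and 6 of these (21.4%) had a peak (Clec2d, Cd302, Cd69, Cd72, Cd93 and Klrd1). In the CD11b+ table were 27, with 5 (18.5%) that had a peak (Clec2d, Clec9a, Clec16a, Mrc1 and Cd93). Cd93, a lectin-like receptor of progenitors and endothelium, had a mean normalised count of 22062 in Lin- cells with a peak in 3 libraries and 7147 in CD11b+ cells with a peak in 4. Cd69, an early activation antigen, had a peak in all 6 Lin- libraries (mean 1047) and in no CD11b+ library (mean 285). Clec2d, a ligand of NK receptors, had a peak in 5 Lin- and 3 CD11b+ libraries at means of 508 and 288. The others had a mean of 79.5 (Cd302), 695 (Cd72) and 429 (Klrd1) in Lin- cells, and of 64.2 (Clec9a), 782 (Clec16a) and 595 (Mrc1) in CD11b+ cells.

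Of 33 genes that signal downstream of these receptors, 24 (72.7%) had a peak in the Lin- and 27 (81.8%) in the CD11b+ libraries, beside a mean share of 65.3% and 55.3% among the genes within 2-fold of each one's level. No test was made of this difference, and the genes' median mean normalised count, 3440 and 2810, was well above that of the lectins, 370 and 507. Unlike for the lectins, the genes set beside them were matched by level only and not by gene span. The difference may thus not be read as an excess on these genes. All 3 adaptors, Fcer1g (FcRgamma), Tyrobp (DAP12) and Hcst, had a peak in both cell types. In Lin- cells the most regions lay on the phosphatase gene Inpp5d, with 14, on the kinase genes Syk and Pik3cd, with 11 each, and on Plcg2 and Nfatc1, with 8 each. In CD11b+ cells Syk held 12, the phospholipase gene Plcg2 10, the kinase gene Prkcd 9 and the transcription factor gene Nfatc1 8, followed by Lyn, Pik3cd, Inpp5d and Card9 with 7 each. Card9 itself had a peak in 2 of the 6 Lin- libraries and in all 4 CD11b+ libraries, at means of 3516 and 6519.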

How the data were processed

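The samples comprised 12 RNA-seq, 10 eCLIP and 10 smInput libraries of mouse cells, grouped by their labels. Per the labels and the study's methods, the authors mapped RNA-seq reads to mm10 with STAR 2.5.3a and compared genotypes with DESeq2, using fdrtool for the Lin- cells. The deposited tables hold the mean normalised count per gene (a signal scaled by library, 1 value for both genotypes together), which was used, and the authors' fold changes, errors, statistics, p values and peak marks, which were not, so the genotype effect and the loss of Igf2bp3 in each library are not analysed here. The eCLIP files hold peaks that the authors called per library with CLIPper and kept where they did not overlap smInput peaks, with a deposited p-value of at most 0.05 each. Per the file headers, eCLIP and smInput peaks were called from alignments treated differently, under different CLIPper settings. The sequencing depth of the eCLIP libraries is not given in the sources used here.

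Peaks were given to a gene by the Ensembl ID in their name. Peaks of a gene on its strand that overlapped by at least 1 base were merged over libraries, within each cell type and over both. Locations and splice sites came from GENCODE M21 (basic set) and sequences from the RefSeq copy of the same genome build. Gene span and exon length came from that annotation, and all 10 members matched. The analysis used Python 3.11.15, pandas 2.3.3 and SciPy 1.17.1, and was tested on simulated peaks. The members, gene lists and measures were chosen with earlier results of these data known, so no test was run. The text names all 10 members, the other genes listed as lectins that had a peak, and the 5 signalling genes with the most regions (with ties). Figures used matplotlib 3.10.9.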

Additional observations from a re-analysis of the deposited data

How the results depend on the processing

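No paired analysis was possible because no result comes from a test. The count of lectins with a peak in Lin- cells, 2, fell to 1 (Clec12a) when a peak in at least 2 biological libraries or a p value below 0.001 was required. In CD11b+ cells the 5 fell to 3 (Clec12a, Clec4e, Clec5a) with at least 2 libraries or at least 2 biological libraries, and to 2 (Clec12a, Clec5a) at p below 0.001. The 7 merged Lin- regions fell to 3 in biological libraries and to 1 at p below 0.001, and the 13 CD11b+ regions to 6 at p below 0.001. By any overlap, 28.6% of the Lin- regions were intronic and 71.4% in coding exons, and of the CD11b+ regions 69.2% (92.3% by midpoint) and 23.1% (0%). By midpoint in the comprehensive annotation, 71.4% of the Lin- and 69.2% of the CD11b+ regions were intronic. With the 4-mers ACAC or CACA, 2 Lin- and 5 CD11b+ regions held the motif. In biological libraries the lectin share was 2.01 per 10000 peaks (Lin-, 3.45 in all libraries) and 8.26 (CD11b+, 8.18 in all), and 3 Lin- regions spanned a splice site. Among genes with a mean of at least 10, the median member had 56.8% of genes above it in Lin- cells and 44.7% in CD11b+ cells, beside 35.6% and 27.9% among all genes. Leaving out each library in turn gave 5 to 7 Lin- and 10 to 13 CD11b+ regions, and lectin shares of 2.81 to 3.94 and 7.39 to 9.03 per 10000 peaks. Leaving out each biological library gave 2 lectins with a peak (Lin-) and 4 to 5 (CD11b+), Clec7a being lost without CD11b+ library 1. The other alternatives moved no count by more than 1.5 times and no share beyond its interval or its spread over all libraries, technical ones included. The limits are the few reads per peak, RNA levels without single libraries, and 2 biological CD11b+ eCLIP libraries. The settings drop libraries, peaks or genes or widen what is counted, and the causes of these changes were not tested.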

Other observations

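Lin- libraries fell into like pairs by the share of all their peaks that spanned a splice site: 52.7 and 48.1% in libraries 1 and 4, 24.7 and 22.1% in 2 and 5, and 44.4 and 40.7% in 3 and 6. The names of the libraries in each of these pairs end in the same digit, but the labels do not state a pairing, and none was used. The share of peaks in introns was 59.1 and 57.2% in Lin- libraries 2 and 5, against 75.8 to 81.3% in the other 4. GT hexamers were held by 20.3 to 31.3% of the peaks of a CD11b+ library and by 6.25 to 8.04% of those of a Lin- library.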
